A study of Homo sapiens with 4 samples.

Results

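The tumour suppressor p53 is a transcription factor that switches on genes for cell cycle arrest, cell death, DNA repair and metabolism when a cell is stressed. Some of its targets feed back on it, since MDM2 marks p53 for destruction and MDM4 blocks its activity. In melanocytes, the pigment cells of the skin, the pathway is known for its part in the response to ultraviolet light. The account below covers a list of 31 genes of the p53 pathway, chosen by name as regulators or known targets of p53. Of these, 29 had coding-sequence reads and were among the 10469 genes tested, out of 14355 gene names in all. TNFRSF10A and SPATA18 were not analysed here.

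The data are ribosome footprints, the short RNA fragments that ribosomes shield from RNase, from the immortalised human melanocyte line Hermes 4B with the genotype given as WT. One group received a control siRNA and the other an siRNA against CDH3-AS1, the antisense transcript of CDH3, which encodes P-cadherin. Each group had 2 libraries, 1 in batch 1 and 1 in batch 2, and all cells grew in medium with serum, TPA, endothelin-1, cholera toxin and stem cell factor. Per the labels, siRNAs were given at 25 to 50 nM and cycloheximide at 100 µg/mL held the ribosomes in place. The series asks how the antisense RNA affects P-cadherin, and the level of CDH3-AS1 itself was not analysed here.

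Library totals ran from 2034854 to 6759850 reads, and 3 coding-sequence reads, taken as the limit of detection, stood for 0.473 to 1.63 CPM, the count scaled to library size. All 10 melanocyte markers had reads in every library, with summed levels from 21969 to 40931 CPM. Control siRNA replicate 1 also held 4054 CPM over 14 skeletal muscle markers and 492 CPM over 6 fibroblast markers, against at most 10.7 and 4.88 CPM in the other libraries. The part of these foreign reads in the values below was not tested. Batch 2 does not contain that library, so the reads behind differences within batch 2 are free of it. The scaling factors, however, were computed over all 4 libraries. Whether the 4 libraries stem from separate cultures is not in the labels, and p-values therefore cover the spread among these libraries alone, which may be technical. Footprints count RNA amount and its translation together, and in such bulk samples fewer cells of a type and less RNA per cell cannot be told apart.

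p53 recognises its targets by a DNA element, which was searched for near their start sites. The p53 response element is a pair of 10-base half-sites, each with a fixed C and G in its core. RefSeq windows of 300 bases (250 before a start to 50 after it, GRCh38.p14) were found for 25 of the members. They were searched for 2 half-sites with both cores intact, at most 13 bases apart and with at most 2 other mismatches. The half-site consensus is its own reverse complement, so the search covers both strands. Such a pair lay in a window of 5 members, and in 3.62% of all 27305 genes with a window. The pairs are shown because they carry the feature that the listed genes are known for. Capitals mark the core C and G of each half-site.
DDB2: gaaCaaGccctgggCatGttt
MDM2: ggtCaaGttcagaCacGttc
FAS: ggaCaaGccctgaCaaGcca
AEN: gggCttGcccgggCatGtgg
FDXR: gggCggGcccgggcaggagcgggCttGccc
PLK2: agaCttGcttcccggcCacGcgc
The DDB2 pair matched the consensus in full, at chr11:47214979-47214999 on the plus strand, starting 5 bases after the start used. The MDM2 pair (chr12:68808923-68808942, plus strand), the FAS pair (chr10:88991309-88991328, plus strand) and the AEN pair (chr15:88621306-88621325, plus strand) had no spacer and 2 mismatches, and lay inside the span of their genes. The FDXR pair (chr17:74872996-74873025, minus strand) had 2 mismatches and a spacer of 10 bases. The PLK2 pair (chr5:58460196-58460218, minus strand) is outside the rule, with 3 mismatches, and is shown because PLK2 is the member called with the block. At 3 mismatches a pair lay in a window of 9 members, GDF15, ZMAT3 and SESN1 among them, and in 15.3% of all genes with a window. A match describes these letters and does not show binding. DNA outside the windows was not searched, so a window without a pair does not show that a gene lacks an element.

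The members differed widely in ribosome density. Levels of different genes were set side by side on the RPKM scale, reads divided by coding length and library size. The value of a gene is the sum over its listed transcripts, each divided by its own coding length. Reads listed under short forms therefore raise it, and the order of genes with several forms is less certain. Of the 214 reads of DDB2 in control siRNA replicate 1, 99 were under a form of 1284 coding bases and 30 under a form of 280. On this scale CDKN1A stood first. CDKN1A encodes p21, the inhibitor of cyclin-dependent kinases that carries out p53's cell cycle arrest. It had 1057 and 547 RPKM in the control libraries of batches 1 and 2, and 1221 and 754 RPKM after CDH3-AS1 siRNA, in every library more than any other member reached. Its median level was above that of 98.8% of the tested genes. BAX, which opens the outer mitochondrial membrane in apoptosis, was second with 221 to 478 RPKM, and every library lay above the highest value of the third. From TNFRSF10B downwards no neighbours in the order were separated, since the ranges of neighbouring members over the 4 libraries overlapped. The death receptor TNFRSF10B, the apoptosis regulator TRIAP1, the nuclease AEN and the DNA damage sensor DDB2 had medians of 125 to 138 RPKM. MDM2 had a median of 85.6 RPKM against 10.3 RPKM for MDM4. GDF15, a secreted stress cytokine, was lowest by its median of 6.84 RPKM (3.06 to 12.1), with TIGAR below it in batch 1. All members together took 0.223% and 0.242% of the coding-sequence reads in batch 1, without and with the CDH3-AS1 siRNA, and 0.172% and 0.186% in batch 2.

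**Figure D1:**
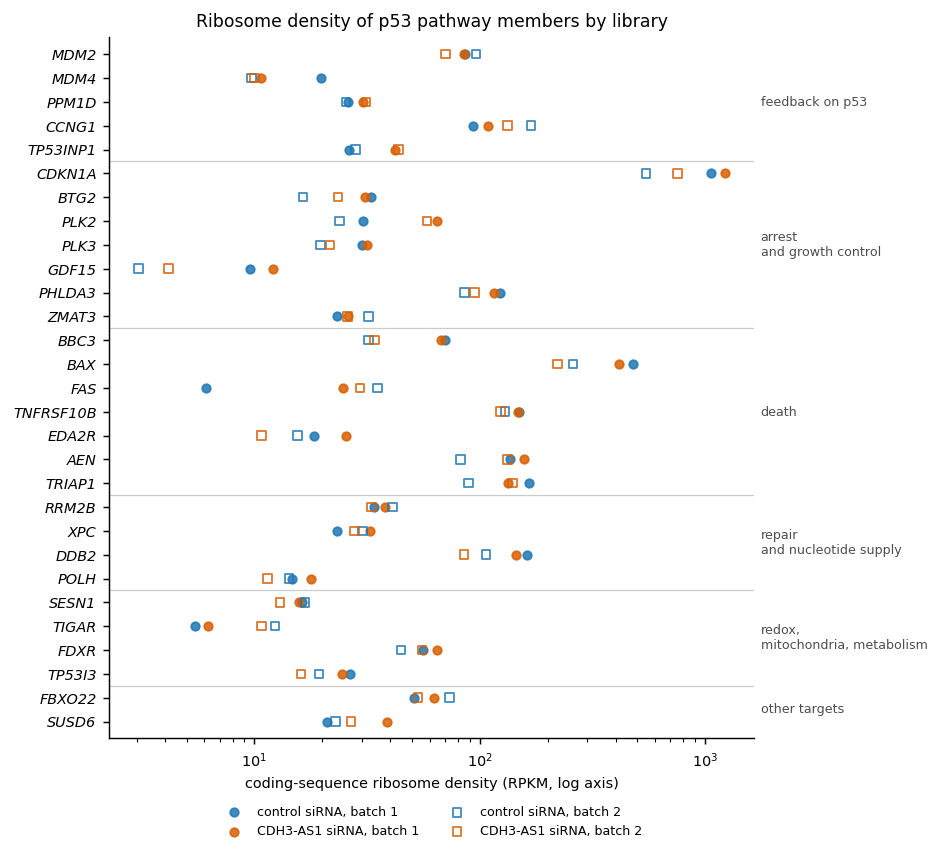
Coding-sequence ribosome density of the 29 tested members in RPKM on a log axis, grouped by role. Blue is control siRNA, orange CDH3-AS1 siRNA, filled circles are batch 1 and open squares batch 2, and each point is 1 library. CDKN1A, at 547 to 1221 RPKM, lies above every other member, and PLK2 shows the widest gap between the siRNA groups, at 23.8 and 30.3 RPKM against 58.3 and 64.4 RPKM.

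The central question is whether the pathway moved with the siRNA. By edgeR's quasi-likelihood test without a covariate 0 of the 29 members passed an adjusted p of 0.05, as did 0% of all tested genes, with 1 member and 224 of the 10469 genes at an unadjusted p under 0.05. With the batch as a block, since libraries of 1 batch share their number in the labels, 1 member was called higher and 0 lower. Over all genes 1.62% were called in that comparison, 0.927% higher and 0.697% lower. DESeq2 with the block called the same member, against 0.544% of all genes, and limma on log2(RPKM + 1) with the block called 0 members. The member is PLK2. The median log2 fold change of the members was 0.05 against -0.03 over all tested genes, with 0.15 in batch 1 and -0.02 in batch 2. Without control siRNA replicate 1 it was 0.21, and without CDH3-AS1 siRNA replicate 1 it was -0.09. In both batches 8 members were higher and 4 lower, and 17 went opposite ways, where 26.5%, 27.8% and 45.7% of all genes did so. The block model drew its spread almost entirely from all genes, so its intervals and p-values do not reflect a gene's own replicates. With it the 95% interval lay within a 2-fold change either way for 21 of the 29 members, and without it for 12, against 55% and 17.7% of all genes.

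PLK2, a polo-like kinase induced by stress that acts on centriole duplication, was higher after CDH3-AS1 siRNA. Control libraries of batches 1 and 2 had 67.5 and 51.8 CPM (127 and 294 reads). CDH3-AS1 siRNA libraries had 141 and 135 CPM (896 and 343 reads). The group means were 59.7 ± 11.1 and 138 ± 4.55 CPM (SD, n = 2). The CDH3-AS1 siRNA libraries lay above both controls and close to each other. The difference was 2.09-fold within batch 1 and 2.59-fold within batch 2. The log2 fold change was 1.21 (SE 0.32, adjusted p = 1.00) without the block and 1.22 (SE 0.28, adjusted p = 0.00156) with it. Leaving out 1 library in turn gave 1.04 to 1.44. The direction could not turn in these runs, since both CDH3-AS1 siRNA libraries lay above both controls. The adjusted p with the block was 0.00128 to 0.0038 under other edgeR settings, 0.0291 by DESeq2 and 0.232 by limma on log2(RPKM + 1), so the call was not made by limma on that scale. PLK2 lies on chromosome 5 at 58453982 to 58460086 (GRCh38.p14), and all its coding-sequence reads were listed under 1 of 2 transcripts. Its relative PLK3, another stress-responsive kinase of the family, had 63.2 and 40.2 CPM with the control and 65.4 and 47.2 CPM with CDH3-AS1 siRNA. The values of PLK3 overlapped between the siRNAs, with a log2 fold change of 0.14 (95% interval -0.45 to 0.72 with the block).

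**Figure D2:**
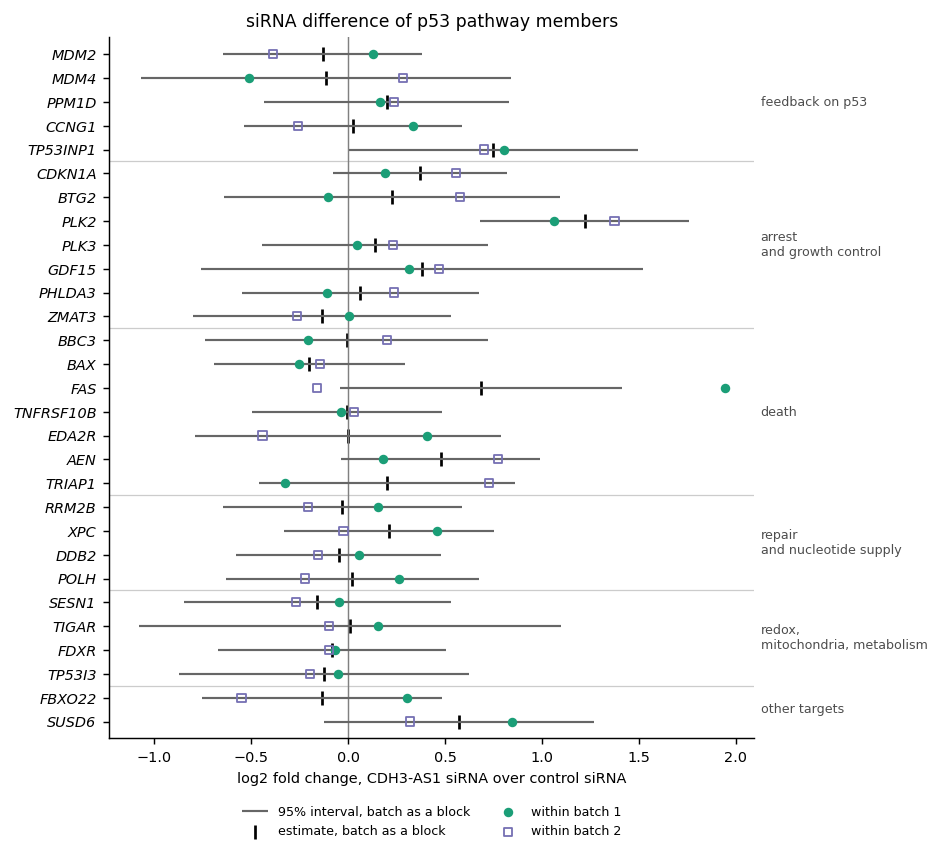
Log2 fold change of each tested member, CDH3-AS1 siRNA over control siRNA, grouped by role. Filled circles are the difference within batch 1, open squares that within batch 2, black ticks the edgeR estimate with the batch as a block, and lines its 95% interval. The interval of PLK2 runs from 0.68 to 1.76, that of TP53INP1 starts at 0.00, those of the other members include 0, and FAS shows the widest gap between the batches, 1.94 against -0.16.

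Among the genes that feed back on p53, TP53INP1 had the largest difference. TP53INP1, a stress protein that promotes the phosphorylation of p53, had 14.3 and 17.3 CPM with the control siRNA in batches 1 and 2, and 25.4 and 28.3 CPM with CDH3-AS1 siRNA. The group means were 15.8 ± 2.07 and 26.9 ± 2.07 CPM (SD, n = 2). Both CDH3-AS1 siRNA libraries were above both controls, by 1.75-fold in batch 1 and 1.62-fold in batch 2. Its log2 fold change of 0.75 (SE 0.38) with the block did not pass over all genes by edgeR's quasi-likelihood test (adjusted p = 0.479). Counted on its highest transcript alone, TP53INP1 had a log2 fold change of 0.44 with the block, and its longer form had 2 reads in control siRNA replicate 1 and 33 to 65 in the other libraries. PLK2 and TP53INP1 were the members that differed by at least 0.5 (log2) upwards in both batches, where 4.37% of all genes did. No member did so downwards, against 4.67% of genes.

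MDM2, the ubiquitin ligase that limits p53, did not separate the siRNAs. Its control libraries had 124 and 152 CPM (batches 1 and 2) and its CDH3-AS1 siRNA libraries 136 and 116 CPM. Its log2 difference was 0.13 in batch 1 and -0.39 in batch 2, and the 95% interval with the block ran from -0.64 to 0.38. MDM4, its non-ligase relative, had 13.3 and 8.99 CPM with the control and 9.16 and 11.0 CPM with CDH3-AS1 siRNA, again in opposite directions in the batches. MDM4 rests on 25 to 58 reads per library, and its interval of -1.07 to 0.84 allows a 2-fold fall. PPM1D, the phosphatase that ends p53 signalling, had 35.1 CPM in both controls and 39.3 and 41.3 CPM after the knockdown siRNA, and its estimate was 0.20 (log2) with a 95% interval of -0.43 to 0.83 with the block. The groups of PPM1D do not overlap, as was the case for 5 members upwards and 1 downwards, where 13.3% and 14.1% of all genes did the same. CCNG1, cyclin G1, had 49.4 and 91.1 CPM with the control and 62.4 and 76.0 CPM with CDH3-AS1 siRNA, and its control values enclosed the others.

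In the arrest group CDKN1A was higher with CDH3-AS1 siRNA within each batch but did not pass the test. Its control libraries had 566 and 286 CPM (batches 1 and 2) and its CDH3-AS1 siRNA libraries 645 and 420 CPM, with group means of 426 ± 198 and 532 ± 159 CPM (SD, n = 2). It was 1.14-fold higher with CDH3-AS1 siRNA in batch 1 and 1.47-fold in batch 2, but the ranges of the siRNAs overlapped. With the block the log2 fold change was 0.37 (SE 0.23, adjusted p = 0.652). GDF15 had 9.57 and 3.00 CPM with the control and 12.0 and 4.33 CPM with CDH3-AS1 siRNA, from 11 to 76 reads. Its 95% interval with the block, -0.76 to 1.52, is the widest of all members. BTG2, an inhibitor of cell proliferation, had 17.01 and 8.28 CPM with the control and 15.8 and 12.6 CPM with CDH3-AS1 siRNA. PHLDA3, an inhibitor of the kinase AKT, and ZMAT3, an RNA-binding protein that acts on splicing, had log2 fold changes of 0.06 and -0.14 with the block, and their groups overlapped. Within batches 1 and 2 the differences were -0.11 and 0.23 for PHLDA3, and 0.00 and -0.27 for ZMAT3.

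The genes of cell death showed no common direction. FAS, the receptor that starts apoptosis from the cell surface, had 6.91 CPM from 13 reads in control siRNA replicate 1 and 27.9 CPM in CDH3-AS1 siRNA replicate 1. In batch 2 the order was the reverse, at 40.2 CPM for the control library and 35.8 CPM for the other. The low value of control siRNA replicate 1 therefore sets the FAS difference, which was 0.37 (log2) over all libraries, -0.31 without that library and 2.12 without control siRNA replicate 2. BAX had 263 and 141 CPM with the control and 220 and 127 CPM with CDH3-AS1 siRNA. Its estimate was -0.20 (log2, 95% interval -0.70 to 0.29) with the block. BBC3, the BCL2-family killer protein PUMA, had 29.2 and 16.4 CPM with the control and 25.3 and 18.9 CPM with CDH3-AS1 siRNA. TNFRSF10B, a receptor of the death ligand TRAIL, had a log2 fold change of -0.01 without the block, with 214 and 181 CPM in the controls and 208 and 184 CPM with CDH3-AS1 siRNA. The 95% interval of TNFRSF10B with the block ran from -0.50 to 0.49. AEN, a nuclease that takes part in apoptosis, had 145 and 84.9 CPM with the control and 164 and 146 CPM with CDH3-AS1 siRNA. AEN was higher by 0.18 (log2) in batch 1 and 0.77 in batch 2 and did not pass with the block (log2 fold change 0.48, SE 0.26, adjusted p = 0.566). EDA2R, a receptor of the tumour necrosis factor family, and TRIAP1, which restrains apoptosis, went opposite ways in the batches.

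The DNA repair genes had overlapping values under the siRNAs. DDB2, which detects ultraviolet damage, had 114 and 87.4 CPM with the control and 118 and 78.3 CPM with CDH3-AS1 siRNA. XPC, its partner in damage recognition, had 71.2 and 89.7 CPM with the control and 97.9 and 88.2 CPM with CDH3-AS1 siRNA. RRM2B, a ribonucleotide reductase subunit that supplies nucleotides for repair, and POLH, the polymerase that copies past ultraviolet lesions, had log2 fold changes of -0.03 and 0.02 with the block. Within batches 1 and 2 these were 0.16 and -0.21 for RRM2B, and 0.26 and -0.22 for POLH. All 4 genes had opposite signs in the batches, and all 4 had a 95% interval inside a 2-fold change with and without the block.

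The 4 tested genes of redox balance and metabolism had log2 fold changes of -0.15 to -0.07 without the block, and none passed. The direction did not hold for TIGAR with the block (0.01), nor for FDXR by limma on log2(RPKM + 1) (0.26). SESN1, a sestrin that restrains growth signalling, had 28.7 and 29.1 CPM with the control and 27.8 and 24.0 CPM with CDH3-AS1 siRNA, and was the member whose groups did not overlap downwards. FDXR, a mitochondrial reductase, had 59.0 and 46.9 CPM with the control and 56.2 and 43.7 CPM with CDH3-AS1 siRNA. TP53I3, a quinone oxidoreductase, had 24.4 and 18.2 CPM with the control and 23.5 and 15.7 CPM with CDH3-AS1 siRNA. TIGAR, a phosphatase that slows glycolysis, had 9 to 60 reads per library and an interval of -1.08 to 1.10 with the block, which includes a 2-fold change in either direction. Of the remaining targets, SUSD6 had 20.7 and 22.03 CPM with the control and 37.6 and 27.6 CPM with CDH3-AS1 siRNA, above both controls (log2 fold change 0.57, SE 0.36, adjusted p = 0.64 with the block). FBXO22, a ubiquitin ligase subunit, had log2 differences of 0.31 in batch 1 and -0.55 in batch 2.

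Of the 5 members with a p53 element pair in their window, none passed the test and all had 95% intervals with the block that include 0. With the block the log2 fold changes were -0.05 for DDB2, -0.13 for MDM2, -0.08 for FDXR, 0.69 for FAS and 0.48 for AEN. DDB2, MDM2 and FAS had opposite signs in the batches, FAS with -0.16 within batch 2, and AEN was higher and FDXR lower in both.

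The batches were compared across the siRNAs. In the model with siRNA and batch, 4 members passed between batch 2 and batch 1, 1 higher and 3 lower, against 15.8% of all genes (9.52% higher and 6.3% lower), so the share of members called was near that of all genes. CDKN1A was lower in batch 2 by 0.80 (SE 0.23, adjusted p = 0.00668), with both batch 2 libraries (286 and 420 CPM) below both of batch 1 (566 and 645 CPM). BAX fell by 0.84 (SE 0.25, adjusted p = 0.00959), from 220 and 263 CPM to 127 and 141 CPM. GDF15 fell by 1.45 (SE 0.59, adjusted p = 0.0476). FAS rose by 1.21 (SE 0.37, adjusted p = 0.0094). Over the CDH3-AS1 siRNA libraries alone, which leave out the library with foreign reads, batches 1 and 2 had 645 and 420 CPM for CDKN1A, 220 and 127 CPM for BAX, 12.0 and 4.33 CPM for GDF15, and 27.9 and 35.8 CPM for FAS. The calls of CDKN1A held under each alternative run. The FAS call was lost by DESeq2 (adjusted p = 0.135) and the BAX call with the transcript of highest total (adjusted p = 0.068). For GDF15 the adjusted p was 0.0599 without a count filter and 0.0509 for the transcript of highest total, and DESeq2 gave none. Of the 29 members, 19 were lower in batch 2 (65.5%), against 49.1% of all genes, and their median was -0.21 against 0.01. By role the medians were -0.56 for arrest, -0.46 for death, -0.22 for redox and metabolism, -0.13 for repair, 0.04 for feedback and 0.05 for the other targets. Summed melanocyte markers were 24068 and 21969 CPM in batch 1 and 40931 and 32107 CPM in batch 2, and summed keratinocyte markers 20.6 and 18.9 CPM against 56.1 and 70.5 CPM. The part of these shifts in the batch differences was not tested.

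**Figure D3:**
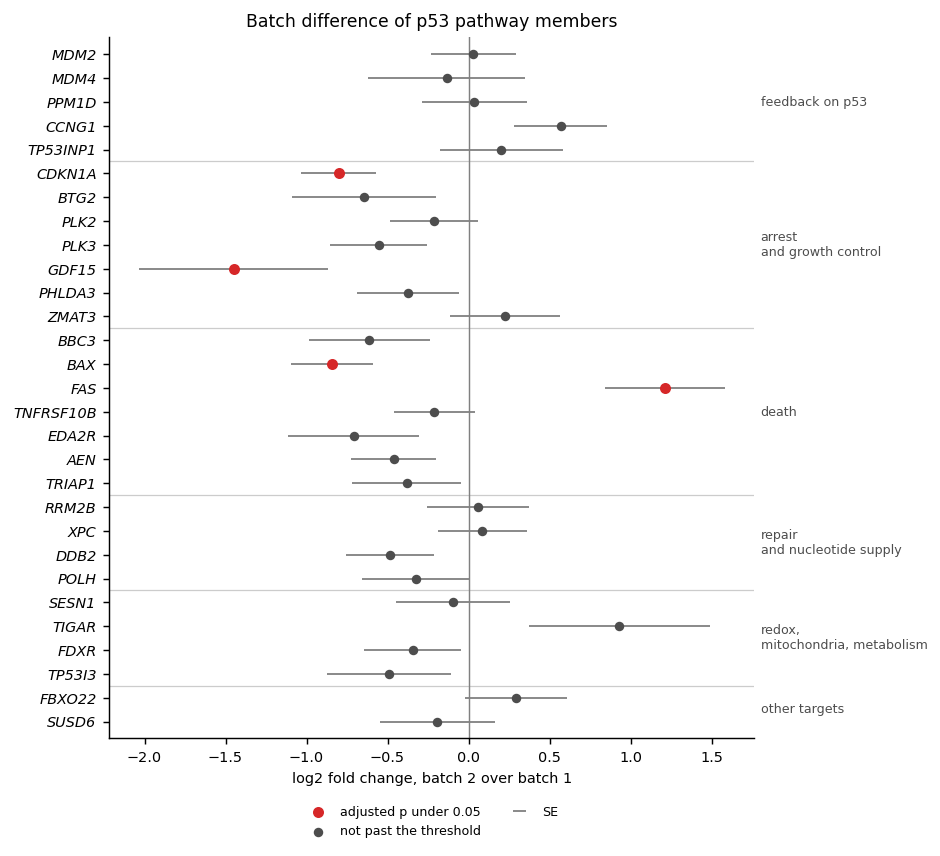
Log2 fold change of each tested member between batch 2 and batch 1, from edgeR's model with siRNA and batch, grouped by role. Lines are 1 SE either way and red points passed an adjusted p of 0.05. CDKN1A, BAX and GDF15 lie at -0.80, -0.84 and -1.45 and FAS at 1.21.

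Footprints before the start codon were a second readout that the choice of genes did not use. Ribosomes in the 5′ UTR often translate short upstream reading frames, which can lower translation of the main protein. The 5′ UTR took 9.74% (95% Clopper-Pearson interval 8.94 to 10.6) and 10.6% (10.0 to 11.2) of the members' reads in control siRNA replicates 1 and 2. With the CDH3-AS1 siRNA the shares were 6.30% (5.95 to 6.67) in batch 1 and 12.3% (11.5 to 13.2) in batch 2. All genes together had 5.98%, 5.08%, 3.81% and 7.09% in the same order, so the members' pooled reads lay above the whole library each time. The intervals of the pooled shares cover counting error only. A pooled share does not describe each member. PHLDA3 alone held 368 of the members' 1187 reads in the 5′ UTR in control siRNA replicate 2. In CDH3-AS1 siRNA replicate 2 single members ran from 0% for TRIAP1 to 58.6% for PHLDA3.

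PHLDA3 had the largest share in both libraries of batch 2, with more footprints in the 5′ UTR than in the coding sequence. In batch 1 ZMAT3 was above it in both libraries, at 38.1% and 31.5%. CCNG1 (35.6%) and FAS (31.6%) were also above it in the control library of batch 1, and MDM4 (35.3%) in the CDH3-AS1 siRNA library. The 5′ UTR of PHLDA3 held 29.8% (24.5 to 35.4) and 28.7% (25.6 to 31.9) of its reads with control and CDH3-AS1 siRNA in batch 1. In batch 2 the shares of PHLDA3 were 57.5% (53.6 to 61.4) and 58.6% (53.03 to 64.0). The siRNAs gave the same share within each batch to within counting error, and the batches did not overlap. Its 3′ UTR share ran the other way, at 37.0% and 35.4% in batch 1 and 11.7% and 9.51% in batch 2. The 3′ UTR of all genes took 3.48% and 2.28% of reads in batch 1 and 1.03% and 1.62% in batch 2. CDKN1A rose from 4.01% and 2.23% in batch 1 to 8.96% and 8.02% in batch 2, and PPM1D from 4.35% and 1.56% to 17.01% and 22.5%. All 5′ UTR reads of CDKN1A and PPM1D were listed under transcripts other than the one with most reads of the gene, which had 0 in every library. The part of read assignment in the batch differences of CDKN1A and PPM1D was not tested. For the leading transcript of PHLDA3 the shares were 29.8% and 28.7% in batch 1, against 57.0% and 57.8% in batch 2. PHLDA3, CDKN1A and PPM1D were the 3 of 29 members whose intervals in batch 2 lay above those of batch 1 for both siRNAs, where 3.16% of all tested genes did so, and 0 members lay below, against 0.554% of genes.

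MDM2, whose 5′ UTR is known to hold upstream reading frames, had 17.1% (13.1 to 21.8) of its reads there in control siRNA replicate 1 and 9.50% (7.79 to 11.4) in CDH3-AS1 siRNA replicate 1. In batch 2 the shares were 7.92% (6.29 to 9.82) for the control and 12.7% (9.46 to 16.6) for CDH3-AS1 siRNA, with overlapping intervals. CCNG1 fell from 35.6% to 16.6% in batch 1 and rose from 12.9% to 25.4% in batch 2. PLK2 did the same at a low level, from 6.57% to 1.85% in batch 1 and from 1.33% to 6.78% in batch 2, again with 0 such reads under its leading transcript. Within batch 1 the interval with CDH3-AS1 siRNA lay below that of the control for 6 of 29 members and above for 0, where 11.7% and 0.831% of all tested genes did so. Within batch 2 it lay above for 4 and below for 0, against 7.35% and 0.277% of genes. The 5′ UTR share of all reads moved the same way, down from 5.98% to 3.81% in batch 1 and up from 5.08% to 7.09% in batch 2, and its part in the members' shares was not tested. No member therefore had intervals apart in the same direction in both batches. Overlapping intervals do not exclude a smaller difference shared by the batches. At the other end, 7 members had under 5% of their reads in the 5′ UTR in every library, among them XPC with at most 0.437%.

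**Figure D4:**
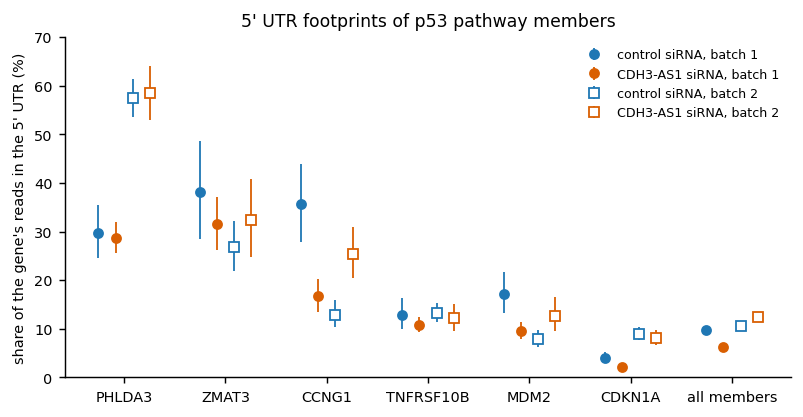
Share of reads in the 5′ UTR, in percent, for the 6 members with at least 20 such reads in every library and for all 29 members summed. Points are single libraries and bars 95% Clopper-Pearson intervals, with control siRNA in blue, CDH3-AS1 siRNA in orange, batch 1 filled and batch 2 open. PHLDA3 stands near 29% in batch 1 and near 58% in batch 2 with either siRNA, while CCNG1 and MDM2 turn their order between the batches.

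Most reads of the leading members came from a single listed transcript. CDKN1A and PLK2 had all coding-sequence reads under 1 transcript each, and MDM2 had 97.9% to 100.0% under 1 of 4. TP53INP1 was split, with 92.6% under the shorter form in control siRNA replicate 1 and 53.1% to 59.6% in the other libraries. BBC3 had 58.2% and 75.0% under its shortest form in batch 1 and 32.3% and 31.2% in batch 2. MDM4 had 40.0% and 68.6% under its longest form in the controls of batches 1 and 2, and 56.9% and 78.6% with CDH3-AS1 siRNA. How reads that match several transcripts were assigned is not given in the sources used here, so these shares are uncertain, as are reads shared by close relatives such as the TRAIL receptors.

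The wider pathway was read from lists of genes chosen by name. Of a list of 27 upstream genes, mostly kinases, cofactors and ligases, 25 were tested and 0 passed in either direction, with a median log2 fold change of -0.12 (batch 1 -0.14, batch 2 0.02). Of these 25, with the block, 1 had an unadjusted p under 0.05, as did 9.79% of all genes. Of 58 further p53 targets 43 were tested, with a median of 0.05, and 2 were called higher and 0 lower with the block, where 0.927% and 0.697% of all genes were called. TRIM22, also known as an interferon-induced antiviral gene, had 181 and 26.6 CPM with the control and 278 and 81.9 CPM with CDH3-AS1 siRNA (log2 fold change 1.08, SE 0.27, adjusted p = 0.00577). PMAIP1, the cell death protein NOXA, had 42.0 and 5.11 CPM with the control and 66.9 and 22.8 CPM with CDH3-AS1 siRNA (1.27, SE 0.35, adjusted p = 0.0175). For both genes the batches lay further apart than the siRNAs, so the groups overlapped, and neither passed without the block.

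Counting these, 7 of the 43 were at least 0.5 (log2) higher in both batches and 4 lower, against 4.37% and 4.67% of all genes. Uncalled genes of lowest p among them, up to 4 named in each direction with the called ones, were as follows. KITLG, the ligand of the receptor KIT, stood at 1.59 and 0.98 (log2) in batches 1 and 2, and PLXNB2, a semaphorin receptor, at 0.61 and 0.67. ANKRA2 stood at -1.71 and -1.23, the ribosomal protein RPS27L at -0.56 and -0.65, CYFIP2 at -0.57 and -0.50, and the lipid kinase DGKA at -0.67 and -0.70. Genes that p21 is known to switch off through the DREAM complex had a median of -0.11 over 37 tested genes, with -0.28 in batch 1 and 0.14 in batch 2, so the sign turned between the batches. Of these 1, the replication helicase subunit MCM6, was called lower and 0 higher, against 0.697% and 0.927% of all genes. MCM6 had 99.4 and 145 CPM with the control and 50.5 and 56.7 CPM with CDH3-AS1 siRNA (log2 fold change -1.16, SE 0.28, adjusted p = 0.00405 with the block). Targets of ATF4, a stress factor that shares genes such as SESN2 with p53, had a median of 0.52 over 14 tested genes (0.48 in each batch). In that list 12 of 14 were higher in both batches, where 26.5% of all genes were, but 0 were called higher with the block. There 1 was called lower, the cystine transporter SLC7A11, with 158 and 48.8 CPM in the controls and 71.0 and 12.99 CPM with CDH3-AS1 siRNA. SLC7A11 had an estimate of -1.45 (log2, SE 0.30, adjusted p = 2.52e-04) with the block. Of the ATF4 targets 5 were at least 0.5 (log2) higher in both batches and 1 lower, against 4.37% and 4.67% of all genes. The 4 higher ones of lowest p with the block were ALDH1L2 (1.12 and 1.00), ATF3 (1.21 and 0.84), STC2 (0.82 and 1.57) and NUPR1 (0.74 and 0.87). These are log2 fold changes within batches 1 and 2, and none of the 4 passed the threshold.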

How the data were processed

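Per the file headers, the authors deposited for each transcript the counts of reads in the 5′ UTR, coding sequence and 3′ UTR, with RPKM values for each region. Checked on the values, the deposited RPKM were scaled to the library's total over all regions. Per the submitters' processing notes the build was hg38 and DESeq2 was used; for the aligner, counting tool, annotation, filters and strand use, the setting was not given in the sources used here. A transcript without a row in a library was taken as 0 reads.

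Coding-sequence counts were summed by gene name, filtered with filterByExpr (minimum count 10, minimum total 15) and tested with edgeR 4.0.16 (TMM, quasi-likelihood test, prior count 2, Benjamini-Hochberg over all 10469 genes, threshold 0.05) in R 4.3.3. CPM are on TMM-scaled coding-sequence totals, and the RPKM of a gene are summed over its listed transcripts. SE were derived from the F statistic, and within-batch values are differences of log2 CPM. Alternatives used DESeq2 1.42.0 and limma 3.58.1 on log2(RPKM + 1). Batch is shared by libraries of the same number, and same-numbered libraries deviated together (Pearson r across genes 0.58). The batch thus pairs the libraries, and a fit with it as a replicate block is given. The code of the fits was run on counts simulated from the block model with a common spread for all genes. That run checks the code and not the spread of these libraries. For 1 gene, the smallest two-sided p of an exact permutation test over these 4 libraries is 0.333. Members, lists and the rule for named genes (members called or at least 0.5 in both batches, MDM2, MDM4, CDKN1A and PLK2 always, and up to 4 genes per list and direction) were chosen with earlier results of these data known. 1 gene of the upstream list is not reported here. Values of other members are printed to account for the whole list. Sequences are from RefSeq tables, which held a start window for 25 of 31 members.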

Additional observations from a re-analysis of the deposited data

How the results depend on the processing

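Without the block, 0 members were called under each alternative run. All genes called then numbered 2 by DESeq2, 52 with no filter on low counts, and 0 to 73 when 1 library was left out, with 73 reached without control siRNA replicate 2. With the replicate block 1 member, PLK2, was called by edgeR (170 genes in all) and DESeq2 (57 genes); limma called 7 genes and 0 members. The edgeR block fit was repeated by choices made after seeing the data, and again called 1 member: 172 genes with RLE size factors, 164 with library totals, 227 with no filter, 112 with at least 50 reads and 149 with the highest transcript. The members' median stayed between -0.02 and 0.06 under the alternatives that keep all libraries together, and ran from -0.094 to 0.21 when 1 library was left out. Directions of small changes were not stable. MDM4 turned to 0.21 with the highest transcript (0.22 with the block as well) and 0.28 within batch 2; MDM2 turned to 0.13 within batch 1 and FAS to -0.16 within batch 2. Leaving out 1 library gave -0.25 to 0.035 for MDM2, -0.38 to 0.18 for MDM4, -0.072 to 0.93 for CDKN1A, -0.44 to 1.42 for GDF15, -0.66 to 0.34 for BAX and -0.31 to 2.12 for FAS. The cause was not tested. DESeq2 called 694 genes and 2 members between the batches against 1657 and 4. With the highest transcript alone the members' coding-sequence share was 83.5%, 87.9%, 88.4% and 87.0%, in place of 81.5%, 86.8%, 86.3% and 83.3%, and the 5′ UTR share 7.78%, 5.13%, 8.80% and 9.09%, in control and CDH3-AS1 siRNA of batch 1, then of batch 2. The 3′ UTR share of control siRNA replicate 2 was 2.76% in place of 3.11%. Members with under 50 reads in a library, 10 of 29, are the least certain.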
